A study of Mus musculus with 12 samples.

Results

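Chromatin accessibility after fulvestrant alone was compared with vehicle in primary fibroblasts from the lower abdominal muscle (LAM) of Aromhum mice. The comparison took every library labelled with fulvestrant and no estrogen (3 libraries) and every library labelled with vehicle (3 libraries), which are 6 of the 12 libraries in the series. Accessibility was measured by ATAC-seq, in which a transposase inserts sequencing adapters where DNA is open, and the values are 1 list of peaks per library. All groups came from Aromhum mice of the FVB/N strain, which carry the human aromatase gene with its own regulatory DNA and so make estradiol (E2) from androgen in their tissues. The cells were plated to enrich for fibroblasts, starved of serum overnight in medium without phenol red, and then treated. The fulvestrant group received 100 nM fulvestrant and then ethanol, and the vehicle group received DMSO and then ethanol, with a labelled treatment time of 1 hour for both. Per the methods of the study, fulvestrant or DMSO was given 3 hours ahead of the ethanol, so the cells met fulvestrant for longer than the labelled time. E2 was added to neither group, so the comparison asks what the antagonist does to chromatin without added hormone. The labels do not say that replicates came from separate animals or cultures, so every p-value measures only the spread between these libraries.

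Fulvestrant is an estrogen receptor antagonist that competes with E2 for the receptor and leads to its degradation. Estrogen receptor-α, encoded by Esr1, binds estrogen response elements in DNA, often far from promoters, and recruits coactivators such as p300 and CARM1 or corepressors. In fibroblasts most open chromatin lies at the promoters of active genes and at distal elements that carry sites for factors such as AP-1, TEAD and RUNX.

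The peaks of the 6 lists on chromosomes 1 to 19 and X were merged where they overlapped or touched, which gave 279276 regions. A region was scored as called in a library when that library's list held a peak in it. Of all regions, 262 were called in all 3 vehicle libraries and in no fulvestrant library (0.0938%), and 133 were called in all 3 fulvestrant libraries and in no vehicle library (0.0476%). Another 1050 were called in all 6. The strongest and best placed regions are shown first, as 201 bases around the summit of the peak. The sequences are the plus strand of mm10 (GRCm38, the C57BL/6J reference, whereas the cells are FVB/N), in lower case, with capitals where 1 of 9 motifs matched on either strand. The motifs were the full estrogen response element (GGTCA and TGACC, 3 bases apart), the nuclear receptor half-site (AGGTCA), AP-1 (TGANTCA), TEAD (GGAATG), an E-box (CAGCTG), RUNX (TGTGGT), C/EBP (TTGCGCAA), a glucocorticoid type element (GNACA and TGTNC, 3 bases apart) and CTCF by name. The half-site can lie inside the full element. Over all 279276 regions, windows of this length held a full element in 0.0243%, a half-site in 13.004%, AP-1 in 6.32%, CTCF in 0.2503%, TEAD in 11.2%, the E-box in 11.5%, RUNX in 16.7%, C/EBP in 0.0308%, the glucocorticoid type element in 0.501% and any of the 9 in 46.5%.

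The vehicle-only regions shown are the one with the highest rank and 2 that lie in genes of the lists examined. The first is at chr10:125598908-125599108, between genes, with Slc16a7 (a monocarboxylate transporter) as the nearest protein-coding gene. The second is at chr16:33991083-33991283 in an intron of Kalrn (a guanine nucleotide exchange factor). The third, at chr1:38308272-38308472, lies inside Aff3 (a subunit of an elongation complex).
Slc16a7: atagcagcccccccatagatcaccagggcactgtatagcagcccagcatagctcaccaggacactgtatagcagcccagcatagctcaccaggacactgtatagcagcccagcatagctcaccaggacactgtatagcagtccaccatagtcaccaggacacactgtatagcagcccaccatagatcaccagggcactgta
Kalrn: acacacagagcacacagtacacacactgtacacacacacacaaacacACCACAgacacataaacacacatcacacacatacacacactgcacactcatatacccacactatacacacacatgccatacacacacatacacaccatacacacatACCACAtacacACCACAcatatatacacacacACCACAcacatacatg
Aff3: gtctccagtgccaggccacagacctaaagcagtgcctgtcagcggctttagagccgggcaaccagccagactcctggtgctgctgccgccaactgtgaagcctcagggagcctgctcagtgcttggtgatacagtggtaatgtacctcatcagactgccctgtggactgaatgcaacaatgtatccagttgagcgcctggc
Capitals mark 4 RUNX matches in Kalrn. The Slc16a7 and Aff3 windows held none of the 9 motifs. In the repeat mask of the reference, 197 of the 201 Kalrn bases were masked and 0 of the bases at Slc16a7 and Aff3. The Slc16a7 window, though unmasked, is made of near-identical copies of a short unit in tandem.

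The fulvestrant-only regions shown are the single-copy regions upstream of Ifna13 (an interferon-α gene) and of Steap3 (a ferrireductase of the endosome), which ranked high, and the one at Cnn1 (calponin 1, an actin-binding protein of contractile cells). Their windows are chr4:88645789-88645989, chr1:120283558-120283758 and chr9:22103716-22103916, in that order.
Ifna13: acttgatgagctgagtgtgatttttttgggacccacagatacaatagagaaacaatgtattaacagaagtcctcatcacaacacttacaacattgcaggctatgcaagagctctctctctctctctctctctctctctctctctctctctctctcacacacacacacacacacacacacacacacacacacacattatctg
Steap3: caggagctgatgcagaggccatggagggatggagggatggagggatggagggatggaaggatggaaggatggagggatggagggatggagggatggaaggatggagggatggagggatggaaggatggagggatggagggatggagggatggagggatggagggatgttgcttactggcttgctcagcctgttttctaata
Cnn1: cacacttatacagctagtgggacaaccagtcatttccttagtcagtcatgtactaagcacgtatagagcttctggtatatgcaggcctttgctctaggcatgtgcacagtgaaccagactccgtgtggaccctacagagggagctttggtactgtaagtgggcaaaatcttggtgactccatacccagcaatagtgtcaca
None of the 9 motifs matched in these 3 windows. The repeat mask covered 98 bases of the Ifna13 window, 200 bases of the Steap3 window and 0 bases of the Cnn1 window.

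The libraries were unequal, and this bears on every count that follows. Peak number on chromosomes 1 to 19 and X was 77163, 109449 and 43253 in vehicle replicates 1, 2 and 3 and 73561, 30881 and 28792 in fulvestrant replicates 1, 2 and 3. Most peaks were weak, since a q-value of 0.05 or less was reached by 14.8% to 46.1% of the peaks of a library. No read totals are in the lists, but the background implied by the peaks was 0.713, 0.799 and 1.02 tags per window with vehicle and 1.21, 0.952 and 1.42 with fulvestrant, and the median peak held 4 to 6 tags with vehicle and 6 to 7 with fulvestrant. Chromosome Y, not used for the comparison, held 34 to 35 peaks in replicate 1 of both groups and 897 to 1077 in the other 4 libraries.

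Vehicle replicate 2 and fulvestrant replicate 3 stood apart from the rest. Among the 1000 peaks of highest fold enrichment (up to 1359 with ties), 84.7%, 16.1% and 85.2% lay within 3000 bp of an annotated start site in vehicle replicates 1, 2 and 3, and 85.2%, 69.0% and 20.5% did in fulvestrant replicates 1, 2 and 3. Of the summits of 1000 such peaks, 37.1% in vehicle replicate 2 and 47.3% in fulvestrant replicate 3 had a sequence found more than once in the genome, against 5.20% to 15.2% in the other 4. At the promoters of 10 housekeeping genes, peaks were called at 9, 5 and 10 with vehicle and at 10, 6 and 1 with fulvestrant. The results that rest on these libraries are therefore given again for vehicle replicates 1 and 3 against fulvestrant replicates 1 and 2, called the 4 libraries below, a choice made after the values were seen.

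**Figure D1:**
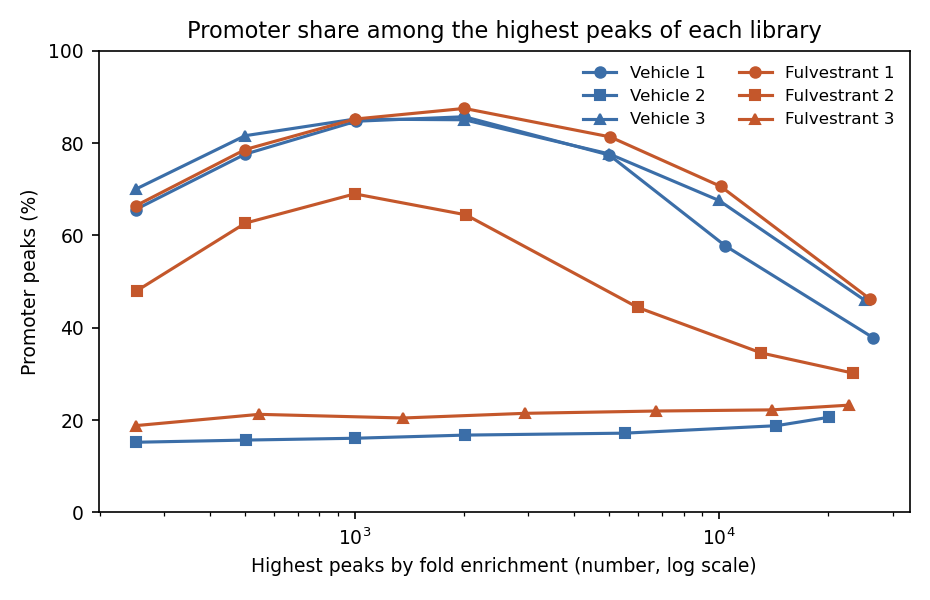
Share of peaks within 3000 bp of a start site (percent, vertical axis) among the highest peaks of each list by fold enrichment (number of peaks, log scale, horizontal axis), 1 line per library, blue for vehicle and orange for fulvestrant. At about 1000 peaks, 3 lines lie near 85%, fulvestrant replicate 2 lies at 69.0%, and vehicle replicate 2 and fulvestrant replicate 3 stay at 16.1% and 20.5%.

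Marker genes were used to check the label of the cells. A promoter window (3000 bp either side of any annotated start site) held a peak in at least 1 library for 10 of 11 fibroblast markers, with Tcf21 the exception. Over all protein-coding genes 18050 of 21728 did, so a call in some library does not separate cell types. Pdgfra, which marks the fibroblasts of the study, had 9, 4 and 7 tags with vehicle, 14 tags in fulvestrant replicate 1 and no peak in fulvestrant replicates 2 and 3. Markers of other cell types were called in some library for 4 of 7 myogenic, 5 of 5 endothelial, 3 of 5 haematopoietic, 3 of 5 epithelial, 3 of 4 Schwann and 2 of 4 adipocyte genes. Those without a promoter peak in any of the 6 included the myogenic genes Pax7, Myod1 and Myh3, the epithelial genes Epcam and Krt5, and the macrophage genes Cd68 and Adgre1. Endothelial markers were called at 1, 5 and 2 genes with vehicle and at 2, 2 and 1 with fulvestrant, myogenic ones at 2, 3 and 0 against 1, 1 and 0, and haematopoietic ones at 3, 2 and 2 against 0, 1 and 0. Spi1, a transcription factor of myeloid cells, had weak peaks in the 3 vehicle libraries (4, 6 and 6 tags) and none with fulvestrant. All 5 pericyte and smooth muscle markers had a promoter peak in some library, with calls at 3, 4 and 2 of the 5 with vehicle and at 1, 0 and 0 with fulvestrant. Fibroblast markers were called at 7, 4 and 7 of 11 genes with vehicle and at 9, 3 and 1 with fulvestrant. Calling also fell over all protein-coding genes, from 58.1%, 44.5% and 54.0% with vehicle to 63.3%, 29.7% and 19.5% in fulvestrant replicates 1, 2 and 3, a fall in replicates 2 and 3 only. The part that other cell types may play in the values below was not tested.

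Fulvestrant libraries had fewer peaks on average, by -0.83 on the log2 scale (n = 3 per group, two-sided p = 0.2 by an exact permutation test), and the groups overlapped. The difference was -0.07 between the replicates numbered 1, -1.21 between those numbered 2 and 3, and -0.28 over the 4 libraries. With 3 against 3 the smallest p that this test can give is 0.1, so no difference of this kind could pass 0.05.

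Where peaks lay in the genome was alike on average and varied mostly within groups. Promoters held 27.4%, 19.6% and 37.8% of peaks with vehicle and 30.8%, 29.6% and 24.5% with fulvestrant. The lowest and the highest share were both in vehicle libraries. The means were 28.2% ± 9.15 with vehicle and 28.3% ± 3.32 with fulvestrant (SD, n = 3; exact permutation p = 1). Exons (2.67% against 2.79%), introns (31.95% against 31.93%) and intergenic DNA (37.13% against 37.01%) differed by less than the spread between replicates. The direction of the promoter difference turned under most other settings, and over the 4 libraries it was -2.42 percentage points.

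Promoter peaks outranked distal peaks within most lists, by fold enrichment, the ratio of tags at the summit to the local background. Their median percentile within the list was 63.7, 52.1 and 69.4 with vehicle and 69.2, 56.9 and 46.9 with fulvestrant. Distal peaks had medians of 40.9, 34.5 and 48.6 with vehicle and 48.7, 46.8 and 59.9 with fulvestrant, so fulvestrant replicate 3 was the one list in which distal peaks ranked above promoter peaks. The difference in promoter rank was -4.10 percentile points (exact permutation p = 0.7, n = 3 per group). It was 5.43 between the replicates numbered 1, -8.87 between those numbered 2 and 3, and -3.53 over the 4 libraries.

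Peak lists were not more alike on average within a treatment than between treatments. The base-pair Jaccard index, the shared length over the total length, was highest for vehicle replicate 3 with fulvestrant replicate 1 (0.224). Vehicle replicates 1 and 3 shared 0.153, vehicle replicate 1 and fulvestrant replicate 1 shared 0.145, and fulvestrant replicates 1 and 2 shared 0.0806. The mean was lower by 0.0147 within treatments than between them (exact permutation test, one-sided, p = 0.8).

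**Figure D2:**
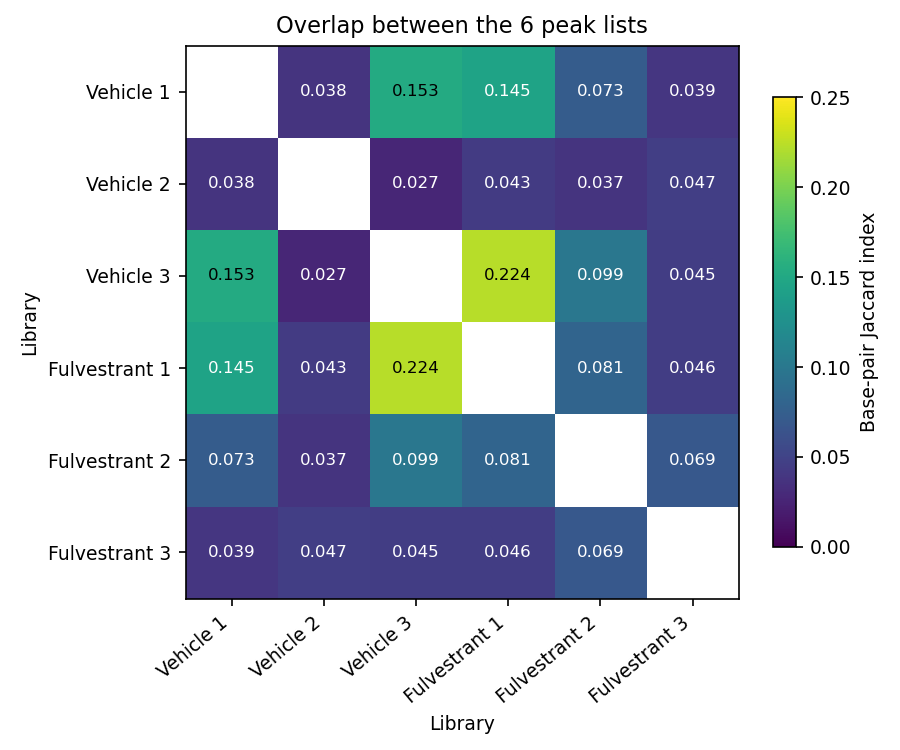
Base-pair Jaccard index between the 6 peak lists, with libraries on both axes and the index as colour and number. The highest value, 0.224, joins a vehicle and a fulvestrant library, and the pairs with vehicle replicate 2 lie between 0.027 and 0.047.

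Regions called in one group only were few and weak. In 230667 of the 279276 regions a peak was called in 1 library alone. The lowest tag pileup over the 3 calling libraries had a median of 4 in the 262 vehicle-only regions and of 6 in the 133 fulvestrant-only regions. Those numbers are near the smallest pileups listed, which were 3 to 4 tags with vehicle and 4 to 5 with fulvestrant. A q-value of 0.05 or less in all 3 libraries was reached by 5 vehicle-only and 8 fulvestrant-only regions. With calls in 2 or 3 libraries of one group and none of the other, the counts were 7293 and 2401, the order of the groups' peak numbers. With lists cut to the same length of 28792 peaks, 39 regions were vehicle-only and 130 fulvestrant-only, so the order of the groups turned. At a q-value of 0.05 or less in every list it turned as well, at 19 and 30. Over the 4 libraries, 1786 regions were called in both vehicle and neither fulvestrant libraries and 1572 the other way, of 174658.

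Promoter shares of the one-group regions were read against that of all regions. Promoters made up 18.7% of vehicle-only regions (95% Wilson interval 14.4% to 23.9%) and 21.8% of fulvestrant-only regions (15.6% to 29.6%), against 22.6% of all regions. In regions called in all 6 libraries they made up 31.5%, and in the 5113 regions called in all of the 4 libraries 70.1%. Over the 4 libraries, promoters made up 28.7% of vehicle-only and 20.7% of fulvestrant-only regions, against 24.5% of all 174658. The summit sequence occurred more than once in the genome for 24.4% of vehicle-only, 54.9% of fulvestrant-only and 52.7% of all-6 regions, which leaves 198, 60 and 497 single-copy regions. How reads from repeated sequence were placed in each library was not tested.

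The vehicle-only region of highest rank was the one nearest Slc16a7, 209543 bp upstream of its start site. Its peaks had 7, 8 and 9 tags and fold enrichments of 4.67, 5.003 and 4.95 in the 3 vehicle libraries. It was called in 1 of the 3 libraries with E2 and in none of the 3 with E2 plus fulvestrant. The Kalrn intron region, 12457 bp upstream of the nearest Kalrn start site, had 6, 11 and 7 tags and fold enrichments of 3.93, 4.80 and 3.97. These 2, the regions nearest Zfp386 (a zinc finger gene) and Zbtb10 (a zinc finger repressor), and a repeated one near Apba2 (a neuronal adaptor) were the 5 at a q-value of 0.05 or less in every vehicle library.

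The other vehicle-only regions of high rank were nearest F2rl3 (a thrombin receptor), Vmn2r117 (a vomeronasal receptor), 5730507C01Rik, Egfem1, Clrn1 (a hair cell protein) and Pramel4. The summit sequence of the F2rl3 region occurred 1087 times in the genome. The other 9 of the 10 had a single-copy summit. Half-sites matched near the summit at Clrn1 only, and TEAD at Vmn2r117 only. Pileups in these 10 regions ran from 5 to 11 tags.

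The 10 fulvestrant-only regions of highest rank had pileups of 6 to 19 tags. The region at the Olfr323 promoter (an odorant receptor) had 11, 9 and 10 tags, but its summit sequence occurred 25995 times in the genome. The region in an intron of Rcor1 (a corepressor that joins LSD1 and histone deacetylases) had 11, 8 and 11 tags and 2 copies, and it was also called in all 6 libraries that received E2. The region in an intron of Arhgap18 (a GTPase activating protein) had fold enrichments of 4.52, 7.17 and 8.27, the last being the highest of the 10 regions in any library, with 26 copies.

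Among single-copy regions, the one 10953 bp upstream of Steap3 had 10, 11 and 8 tags. The region 1430 bp upstream of Ifna13 had 8, 12 and 13 tags and fold enrichments of 4.07, 6.25 and 5.51. Homer1 (a postsynaptic scaffold) had 8, 8 and 9 tags in an intron, and the region 12431 bp upstream of Errfi1 (a feedback inhibitor of the EGF receptor) had 8, 7 and 8. Ube2l6 (an enzyme that conjugates ISG15) had 8, 7 and 8 tags at 2143 bp upstream of its start site, and Ikzf3 (a lymphoid transcription factor) had 7, 6 and 10 in an intron. The repeat mask covered 100% of the bases around the Homer1 and Ikzf3 summits, 35.8% at Ube2l6 and 9.45% at Errfi1. A single-copy summit can thus lie in masked repeats. The remaining region, in a repeated sequence with 19 copies, had Fam181b as its nearest protein-coding gene.

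**Figure D3:**
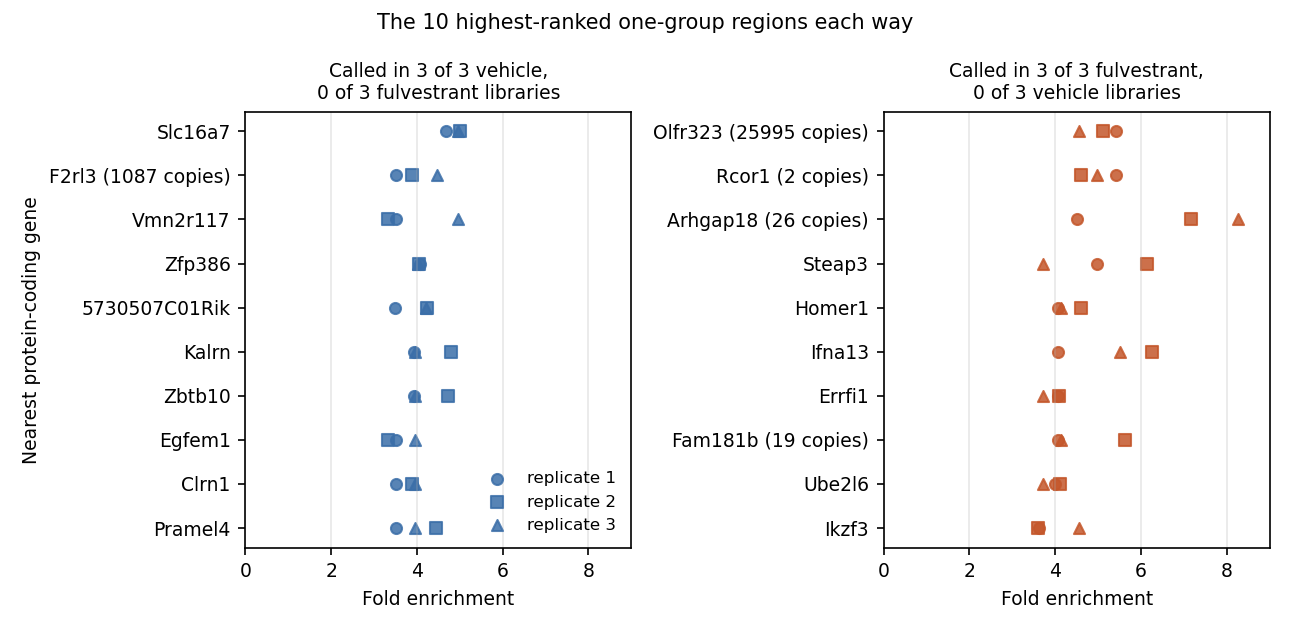
Fold enrichment (horizontal axis, from 0) of the peaks in the 10 highest-ranked vehicle-only regions (left) and fulvestrant-only regions (right), named by nearest protein-coding gene, with 1 point per library. Most points lie between 3 and 6, the highest is Arhgap18 in fulvestrant replicate 3 (8.27), and the number of genome copies is given where a summit is not single-copy.

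Of the genes in the lists examined, 6 had a vehicle-only region in the gene body or the 50000 bp upstream, and 2 had a fulvestrant-only region. Over all 21728 protein-coding genes, 274 (1.26%) and 128 (0.589%) did. Kalrn, Aff3 and Chst2 (a sulfotransferase of glycosaminoglycans) are 3 of the 58 genes that the study chose for E2. Dcbld2 (a membrane receptor) is 1 of the 33 matched genes that it chose for E2 plus fulvestrant. The study chose these lists with ATAC-seq data of the same series, so they are not independent evidence of a direction. Aff3 had 5, 5 and 6 tags, Chst2 had 4, 7 and 7 at 11474 bp upstream, and Dcbld2 had 5, 7 and 6 in an intron. The bases around the Dcbld2 summit, though only 9.45% masked, are near-identical copies of a short unit in tandem. The region at -50412 bp from the start site of Cdkn1b (a cyclin-dependent kinase inhibitor) had 5, 8 and 8 tags and lies in an exon of Gpr19.

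The fulvestrant-only list genes were Smad6 (an inhibitory Smad of BMP and TGF-beta signaling) and Cnn1. Smad6 had 9, 6 and 7 tags at 43086 bp upstream. The repeat mask covered 61.7% of the bases around the Smad6 summit, most of which are short units in tandem. Cnn1 had 7, 6 and 6 tags at 629 bp upstream. The Cnn1 promoter window was nonetheless called in all 6 libraries, since the vehicle libraries had peaks of 4, 5 and 6 tags elsewhere in it, at 148, 721 and -2925 bp from the start site. No estrogen receptor target gene and no receptor or coregulator gene had a one-group region in its locus. Each of these lists holds 20 genes, so at the 1.26% and 0.589% of all genes they could hold none.

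Libraries that the choice of regions did not use give a second reading of the one-group regions. All of these received E2, and the groups differ by fulvestrant. Vehicle-only regions were called at 40.1%, 15.6% and 19.1% in E2 replicates 1, 2 and 3 and at 30.2%, 13.7% and 14.5% in E2 plus fulvestrant replicates 1, 2 and 3. The difference was -5.47 percentage points (exact permutation p = 0.5, n = 3 per group), with -9.92 between the replicates numbered 1. Fulvestrant-only regions were called at 39.1%, 33.8% and 27.1% with E2 and at 28.6%, 27.1% and 30.8% with E2 plus fulvestrant. Their difference was -4.51 percentage points (p = 0.4, exact permutation test), so both sets were called less often on average where fulvestrant was present, within the spread between replicates.

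Over all 279276 regions the same difference was -1.20 percentage points, from 7.63% to 6.43%, and for all-6 regions it was -2.00, from 87.5% to 85.5%. Of the one-group regions, 81 of 262 and 37 of 133 were called in none of the 6 libraries with E2. Among fulvestrant-only regions, 4 were called in all 6 of them, near Rcor1, Ccdc171, Gm38393 and Hmgcs1 (cytosolic HMG-CoA synthase). No vehicle-only region was called in all 6. Calls in 3 E2 and 0 E2 plus fulvestrant libraries, or the reverse, were made in 1 and 2 vehicle-only regions and in 1 and 0 fulvestrant-only regions.

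**Figure D4:**
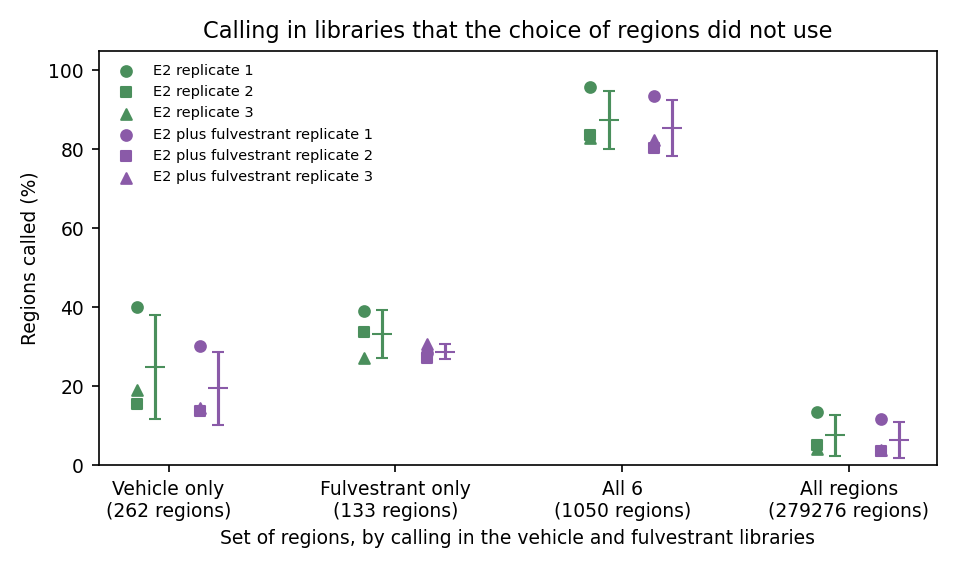
Share of regions called (percent, vertical axis) in the 3 E2 and the 3 E2 plus fulvestrant libraries, for 4 sets of regions defined in the vehicle and fulvestrant libraries, with points for libraries and bars for mean ± SD. Both one-group sets lie between 13.7% and 40.1%, between all-6 regions (80.5% to 95.9%) and all regions (3.67% to 13.6%).

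No region called in all 6 libraries passed the test for a difference in rank between the groups. The fold enrichment of each region was ranked within its list, turned into a normal score, and compared with limma, and 0 of 1050 regions passed an adjusted p of 0.05 (0%). An unadjusted p under 0.05 was reached by 18 regions (1.71%), with 516 of the 1050 higher and 534 lower with fulvestrant. Over the 4 libraries 0 of 5113 passed, and 114 had an unadjusted p under 0.05. Among the 1050 regions called in all 6 libraries, the groups did not overlap in 20 that were higher and 18 that were lower with fulvestrant.

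The lowest p was at a region near Tmem267 (a transmembrane protein), which was lower with fulvestrant. It lies at chr13:119613178-119613992, within 3000 bp of an annotated start site and 6998 bp from that of Tmem267, and 201 bases from chr13:119613548-119613748 are shown.
Tmem267: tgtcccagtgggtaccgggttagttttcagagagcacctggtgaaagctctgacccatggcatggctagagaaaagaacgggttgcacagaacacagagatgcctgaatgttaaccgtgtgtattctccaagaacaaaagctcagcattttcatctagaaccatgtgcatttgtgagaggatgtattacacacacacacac
None of the 9 motifs matched in it, and the repeat mask covered 25 of its bases. Its fold enrichment was 3.08, 2.81 and 2.37 with vehicle and 2.64, 1.90 and 2.16 with fulvestrant, and its percentile was 56.1, 50.3 and 1.38 against 8.10, 0.0356 and 0.198. Vehicle replicate 3 thus lay below fulvestrant replicate 1. The difference in normal score was -1.88 ± 0.50 (SE; limma adjusted p = 0.159). Leaving out fulvestrant replicate 1 gave an adjusted p of 0.00622 for this region by limma.

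Next came a region inside 1600014C10Rik, within 3000 bp of a start site, at chr7:38194504-38195581 (difference -1.71 ± 0.52, limma adjusted p = 0.591) and an intron region of Chl1 (a neural cell adhesion protein) at chr6:103648948-103649396. The Chl1 region was among the highest peaks of every list, with fold enrichments of 35.1, 34.9 and 31.8 against 32.004, 33.3 and 32.4, and its groups overlapped (limma adjusted p = 0.833). By limma it passed with fulvestrant replicate 1 left out (adjusted p = 0.0416) and among single-copy regions alone (adjusted p = 0.0151). Its percentile was 100, 99.994 and 99.993 with vehicle and 99.995, 99.987 and 99.972 with fulvestrant. The mean difference was only -0.0109 percentile points. Regions near Gm31371 and in Lyrm7 (a factor for assembly of respiratory complex III) followed, both with repeated summits.

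On the higher side, the lowest p belonged to a region at chr17:39847480-39848752 that overlaps the genes Gm42418 and CT010467.1 and has Esp38 as the nearest protein-coding gene (limma adjusted p = 0.999). Its pileup was 832, 228 and 1298 tags with vehicle and 1547, 622 and 459 with fulvestrant, and the groups overlapped. The region nearest Htr1a (a serotonin receptor), at chr13:105573056-105573408, had 4, 6 and 8 tags with vehicle and 12, 20 and 17 with fulvestrant. The groups did not overlap there, with fold enrichments of 2.92, 3.89 and 4.46 against 5.87, 10.4 and 7.44, although the adjusted p by limma was 0.999. Its summit was single-copy, but the repeat mask covered 92.5% of the bases around it. Regions nearest Gm15319, Gm10721 and Kdm4c (a histone demethylase) had the other low p-values, each with 2 or more copies.

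At promoters, 127 of 21728 protein-coding genes (0.584%) had a peak in all 3 vehicle libraries and in no fulvestrant library, and 13 (0.0598%) had the reverse. With lists of equal length these counts were 21 and 43, so the order of the groups turned, and over the 4 libraries they were 331 and 211. The vehicle-only promoters of highest rank included those of Ankdd1b, Metap2 (methionine aminopeptidase 2), Xylt1 (which starts glycosaminoglycan chains on proteoglycans), Il17c, Ptprf (a receptor tyrosine phosphatase), Pvrig, Cxadr (a junction protein), Ms4a6d and Cdh16. Metap2 had 5, 5 and 7 tags, Xylt1 5, 7 and 12, and Cxadr 5, 5 and 15. Peaks of one gene were often apart, as at Xylt1, where summits lay 2319, 1373 and -680 bp from the start site.

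Fulvestrant-only promoters were led by Ifna13, Rnf223, Gm10697, 4930451I11Rik and Togaram2. Hsf4 (a heat shock factor of the lens), Lamc3 (a laminin chain), Cyp2ab1, Ceacam10 and Htr1d followed. Ifna13 was the gene with the most tags, and its 3 summits lay close together, at -1520, -1474 and -1430 bp. Hsf4 had 7, 5 and 7 tags and Lamc3 5, 5 and 8. Only 8 of the 127 and 2 of the 13 genes were the nearest protein-coding gene of a promoter region called in that same group only. That match was by nearest gene and not by position in the promoter window.

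The 3 estrogen receptor genes differed in promoter calling. Esr1 had peaks of 5 and 6 tags in vehicle replicates 2 and 3, one of 7 tags in fulvestrant replicate 2, and none in the other 3 libraries. Esr2, the gene of estrogen receptor-β, had 3, 7 and 7 tags with vehicle and 7, 6 and 8 with fulvestrant. Gper1, the membrane estrogen receptor, had one peak of 7 tags, in fulvestrant replicate 3. Carm1 and Prmt1, arginine methyltransferases that act as coactivators, had the strongest promoters of this list, at 42, 8 and 79 tags against 78, 15 and 9 for Carm1 and at 37, 6 and 98 against 88, 24 and 7 for Prmt1. In both genes the libraries differed more within a treatment than the groups did.

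Of the 20 receptor and coregulator genes, calls were made at 16, 16 and 15 with vehicle and at 18, 11 and 10 with fulvestrant. A promoter peak in all 6 libraries was present for 6 (among them Esr2, Ep300, Med1, Carm1 and Prmt1), against 1129 of 21728 protein-coding genes (5.20%). More vehicle than fulvestrant libraries were called for 8 genes and fewer for 2, against 45.5% and 12.6% of all protein-coding genes. With lists of equal length the split was 4 and 8, against 25.7% and 19.3% of all genes, so the direction turned. Over the 4 libraries it was 5 and 3, against 30.8% and 12.2%. No gene of this list was called in 3 libraries of one group and 0 of the other.

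Among 20 estrogen receptor target genes, 9 were called in more vehicle and 2 in more fulvestrant libraries, near the 45.5% and 12.6% of all genes. Greb1, a cofactor that the receptor induces, had 5 and 5 tags in vehicle replicates 1 and 2 and 7 in fulvestrant replicate 3. Pgr, the progesterone receptor gene, had 4 and 5 tags in vehicle replicates 1 and 2 and no peak with fulvestrant. Ccnd1 (cyclin D1) went the other way, with 11 tags in vehicle replicate 3 and 12, 7 and 7 with fulvestrant. Xbp1, a stress response factor, had 10, 5 and 17 tags against 21, 6 and 5. With lists of equal length, 6 genes were called in more vehicle and 8 in more fulvestrant libraries, against 25.7% and 19.3% of all genes. Over the 4 libraries 8 and 5 were, against 30.8% and 12.2%.

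The TGF-beta pathway list holds ligands, receptors and Smads that drive fibrosis, and it gave the most uneven split of the lists other than cell type markers. Of 19 genes, 17 were called in more vehicle libraries and 0 in more fulvestrant libraries, against 45.5% and 12.6% of all genes. By library, calls were made at 17, 15 and 19 genes with vehicle and at 19, 6 and 1 with fulvestrant. The low counts thus came from fulvestrant replicates 2 and 3, and fulvestrant replicate 1 was called at all 19. Over all genes, calls were made at 58.1%, 44.5% and 54.0% with vehicle and at 63.3%, 29.7% and 19.5% with fulvestrant. Smad3 had 15, 5 and 31 tags with vehicle and 42, 8 and no peak with fulvestrant, and Tgfbr2 had 10, 4 and 23 against 10 and no peak in replicates 2 and 3. Tgfb1 had no peak, 7 and 6 tags against 11 and no peak in replicates 2 and 3. With lists of equal length the split was 9 and 0, against 25.7% and 19.3% of all genes. Over the 4 libraries it was 11 and 0, against 30.8% and 12.2%. Housekeeping promoters split 7 and 1 of 10, with calls at 9, 5 and 10 against 10, 6 and 1 genes. They split 5 and 1 with lists of equal length and 3 and 0 over the 4 libraries. The cause of these splits was not tested.

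Of 25 extracellular matrix genes, 15 were called in more vehicle and 4 in more fulvestrant libraries, against 45.5% and 12.6% of all genes. With lists of equal length the counts were 9 and 4, against 25.7% and 19.3% of all genes. Over the 4 libraries they were 12 and 2, against 30.8% and 12.2%. By library, calls were made at 17, 13 and 21 of them with vehicle and at 23, 5 and 8 with fulvestrant, with Fn1 (fibronectin) at 10, no peak and 22 tags against 21, 7 and 6. Col1a1 (a type I collagen chain) had 8, no peak and 18 tags against 17, 5 and 6. Of 12 contractile genes, 9 and 1 were so called, 6 and 2 with lists of equal length and 6 and 0 over the 4 libraries. Calls were made at 12, 8 and 10 of them with vehicle and at 9, 5 and 3 with fulvestrant. Acta2, smooth muscle actin, had 4, 6 and 10 tags with vehicle and no promoter peak with fulvestrant, and it was the only contractile gene with that pattern, named here after its values were seen. Its vehicle summits lay 2374, -1872 and 224 bp from the start site, so they were not in 1 region. Tagln (transgelin) had 4 and 9 tags in vehicle replicates 1 and 3 and no peak in the other 4.

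The genes that the study chose for E2 split 40 and 4 of 58, and those it chose for E2 plus fulvestrant split 22 and 3 of 33, against 45.5% and 12.6% of all genes. With lists of equal length they split 19 and 13 and 12 and 5, and over the 4 libraries 26 and 8 and 13 and 2. Over all genes the shares were 25.7% and 19.3% with equal length and 30.8% and 12.2% over the 4 libraries. Piezo2 (a mechanosensitive channel) had no peak, 4 and 5 tags against 8, 5 and 7, and it was one of the 4 called in more fulvestrant libraries. Adamts6 (a secreted protease), Ccn3 and Ncam1 (an adhesion molecule) had peaks in vehicle replicates 1 and 3 and in fulvestrant replicate 1 only.

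Immediate early genes split 7 and 6 of 20, but 4 and 0 over the 4 libraries, against 30.8% and 12.2% of all genes. They were called at 20, 8 and 20 genes with vehicle and at 20, 16 and 10 with fulvestrant. Atf3 was called in all 6 libraries, at 11, 5 and 35 tags against 56, 16 and 8. Cell cycle genes split 11 and 4 of 20, heat shock genes 5 and 2 of 11, and hypoxia genes 8 and 0 of 12, against 45.5% and 12.6% of all genes. These 3 lists split, with peak lists of equal length, 4 and 5, 4 and 4, and 5 and 2, and over the 4 libraries 6 and 2, 3 and 0, and 5 and 1. Immediate early genes split 3 and 5 with lists of equal length, against 25.7% and 19.3% of all genes. Genes listed as silent in fibroblasts split 5 and 3 of 10, 1 and 3 with lists of equal length and 3 and 1 over the 4 libraries.

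**Figure D5:**
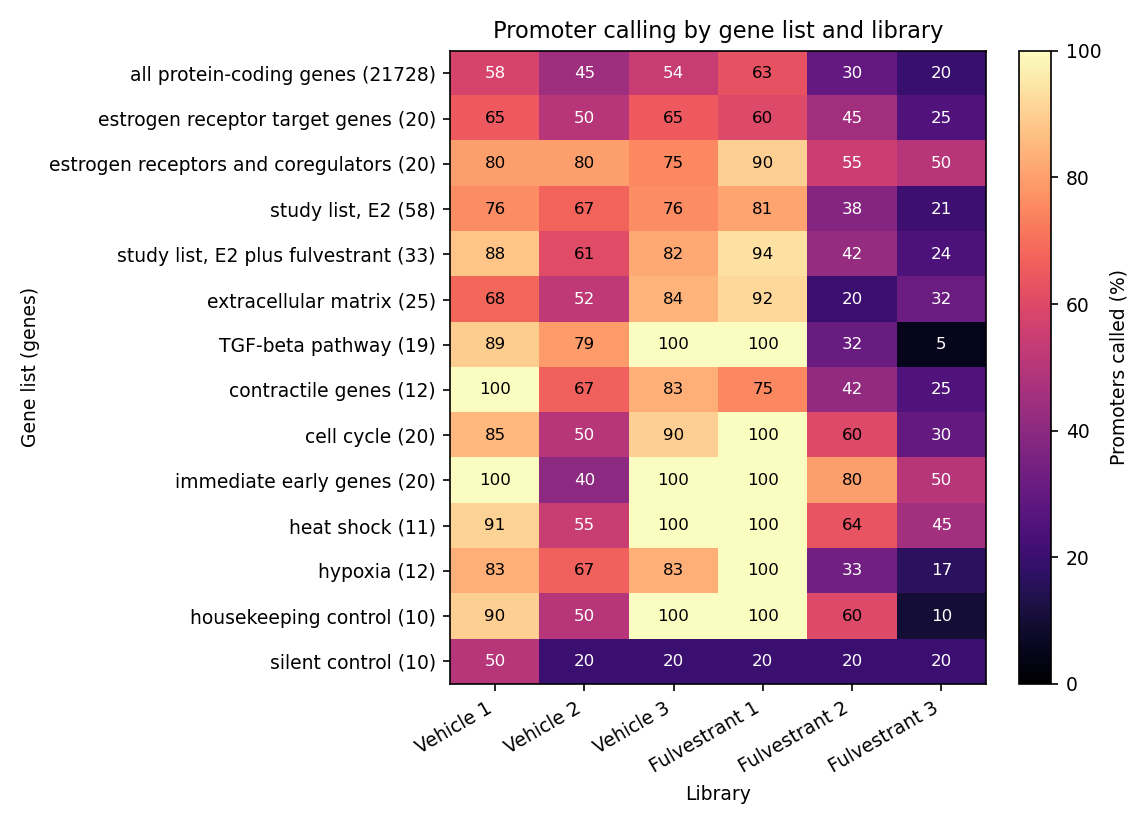
Percent of promoters called (colour and number) for 14 gene lists (rows, with the number of genes) in the 6 libraries (columns). Fulvestrant replicate 1 is like vehicle replicates 1 and 3 in nearly every row, and fulvestrant replicate 3 is the lowest or tied for the lowest in 12 of the 14 rows.

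Peak number over the gene body and the 50000 bp upstream, per 10000 peaks of the list, was higher in every vehicle library for 842 of 21728 genes (3.88%) and higher in every fulvestrant library for 863 (3.97%). At a q-value of 0.05 or less the counts were 770 and 167. Nrip1, a corepressor that the receptor induces, was higher with vehicle, at 0.518, 0.822 and 0.462 against 0.136, 0.324 and 0. Acta2 was higher with vehicle, at 0.389, 0.731 and 0.462 against 0.136, 0 and 0, from 3, 8 and 2 peaks against 1, 0 and 0. The Acta2 locus includes the promoter peaks given above, so this is not a separate reading. Tgfbr2 was higher with fulvestrant, at 1.04, 0.731 and 0.925 against 1.36, 1.295 and 1.74, although its promoter was called in fewer fulvestrant libraries. Of the 58 genes that the study chose for E2, 4 were higher with vehicle and 3 were higher with fulvestrant. Fbln7 and Mgat3 were among those higher with fulvestrant. Of the 20 receptor target genes 2 were higher with vehicle and 0 with fulvestrant, and of the 19 TGF-beta genes 0 and 1 were.

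No motif share at the summits of distal peaks differed beyond the spread between replicates. The full estrogen response element matched at 10, 18 and 10 distal peaks with vehicle and at 16, 1 and 3 with fulvestrant, which is under 0.04% of the distal peaks of any library. Half-sites matched at 12.8% ± 0.45 of distal peaks with vehicle and at 12.5% ± 0.39 with fulvestrant. AP-1 matched at 6.91%, 5.16% and 11.5% with vehicle and at 7.84%, 5.69% and 4.86% with fulvestrant, a difference of -1.74 percentage points (exact permutation p = 0.6). TEAD matched at 11.95% ± 1.89 and 11.005% ± 0.71. The lowest unadjusted p over the 9 motifs was 0.4, and every adjusted p was 1.

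In one-group distal regions a full estrogen response element matched in 0 of 213 vehicle-only regions, which allows a share of up to 1.41%, and in 0 of 104 fulvestrant-only regions, which allows up to 2.88%. These limits cover counting error only. Half-sites matched in 11.3% and 11.5% of them, against 13.1% of all distal regions. RUNX matched in 19.7% and 11.5%, against 17.2%. TEAD matched in 4.69% of vehicle-only regions (10 of 213) and in 12.5% of fulvestrant-only regions, against 11.4% of all distal regions.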

How the data were processed

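ATAC-seq peak lists of 3 vehicle and 3 fulvestrant libraries were used, with the 3 E2 and 3 E2 plus fulvestrant libraries as a second reading. Per the methods of the study and the submitters' processing notes, the authors trimmed reads with Trimmomatic 0.39, aligned them to mm10 with Bowtie2, removed duplicates with Picard 2.21.4 and called peaks in each library with MACS2, without pooling. The fold enrichment in the deposited lists is the authors' ratio of tags at the summit to the local background. The −log10 p and −log10 q values are those of the deposited MACS2 output. The score in column 10, as deposited, is the offset of the summit from the peak start. The lists hold weak peaks and no read totals, so the depth is known only through the background and the tag pileup, which were solved from fold enrichment and −log10 p (tolerance 0.002).

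Groups and replicate numbers came from the labels. The peaks of the 6 lists on chromosomes 1 to 19 and X were merged where they overlapped or touched. A peak was a promoter peak when its summit lay within 3000 bp of any of 130588 start sites of the GRCm38 annotation, and was otherwise placed in exon, intron or intergenic DNA. Copies of a summit are the smallest count over 3 adjoining 32-base words in GRCm38. Single values were compared by exact permutation over samples. Ranks at regions called in all 6 libraries were compared with limma 3.58.1 (eBayes with trend, R 4.3.3) with Benjamini-Hochberg adjustment. Other steps used Python 3.11.15, numpy 2.4.6, pandas 2.3.3 and scipy 1.17.1. The steps were tested on simulated data. The model for counts that the study used was not fitted, since counts were not used here.

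Named were the 10 one-group regions each way with the highest minimum percentile, list genes with a one-group region in their locus, the 5 regions each way of lowest limma p and the 10 one-group promoters each way. Members and lists were chosen with earlier results of these data known. The alternatives were stricter peak thresholds, lists of equal length, a promoter window of 1000 bp, motif windows of 50 bp, other definitions of a call, other ranks, the replicate block, and leaving out each library. The 4 libraries and single-copy summits were added after the data had been seen. Of the 34 genes the study chose for E2 plus fulvestrant, 33 matched the annotation. A few genes that these rules name are not reported here.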

Additional observations from a re-analysis of the deposited data

How the results depend on the processing

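Over 218 recomputed differences the lowest p was 0.1, the smallest that exact permutation of 3 against 3 gives. Of 311 recomputed values, 190 kept the direction of a difference or stayed within 1.5 times a count, 67 counts or values moved and 54 differences turned in sign. The cause of each change was not tested, beyond the smaller number of peaks or libraries that a setting leaves.

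The class shares and motif shares were near 0 difference and turned often. The promoter share difference (0.03 percentage points) became -4.40 at q of 0.05 or less, -2.50 at −log10 q of 5 or more, -1.06 with lists of equal length, -0.87 with a window of 1000 bp, -1.66 in replicates 2 and 3, and -2.42 over the 4 libraries. Exons (0.12) became -0.13 at q of 0.05 or less, -0.23 in replicate 1 and -0.052 over the 4 libraries. Introns (-0.02) became 0.11, 0.33 (equal length), 0.36 (1000 bp), 0.40 (replicates 2 and 3) and 1.37 (4 libraries). Intergenic DNA (-0.12) became 4.42 at q of 0.05 or less, 4.89 at −log10 q of 5 or more, 0.53, 0.22, 0.97 and 1.11 under the same settings in turn. Promoter rank (-4.10) became 5.43 in replicate 1. The full estrogen response element (-0.0086) became 0.0076 at q of 0.05 or less, 0.025 at −log10 q of 5 or more and 0.0053 with equal length. RUNX (0.064) became -2.17, -2.56 and -0.65 under these 3 settings. At −log10 q of 5 or more, C/EBP became 0.085 and the glucocorticoid type element -0.0016.

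Counts in one group only moved by the most. Vehicle-only and fulvestrant-only regions (262 and 133) were 19 and 30 at q of 0.05 or less, 0 and 9 at −log10 q of 5 or more, 7293 and 2401 with 2 of 3 calls, 59241 and 55878 in replicate 1, 2693 and 843 in replicates 2 and 3, and 1786 and 1572 over the 4 libraries. They were 39 and 130 with equal length and 90 and 97 where a peak had to cover 0.5 of the region, and fulvestrant-only regions were 60 with single-copy summits. One-group promoters (127 and 13) were 10 and 6 at q of 0.05 or less, 21 and 43 with equal length, 45 and 7 with 1000 bp, 2380 and 84 in replicates 2 and 3, and 331 and 211 over the 4 libraries. Loci higher with vehicle and with fulvestrant (842 and 863) were 217 and 293 with equal length, 3541 and 3296 in replicates 2 and 3, 2666 and 2831 over the 4 libraries, and 770 and 167 at q of 0.05 or less.

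Leaving out each library in turn gave differences of -1.26 to -0.52 for log2 peak number, -4.31 to 4.81 for promoters, -0.16 to 0.27 for exons, -2.02 to 2.23 for introns, -2.78 to 1.86 for intergenic DNA, -9.86 to 1.29 for promoter rank and -0.0289 to 0.0151 for list similarity. Vehicle-only regions differed by -10.8 to 2.10 between the E2 plus fulvestrant and E2 libraries, and fulvestrant-only regions by -7.64 to -1.63. Motif shares ranged from -0.016 to -0.0025 for the full estrogen response element, -0.59 to -0.16 for the half-site, -3.10 to 0.099 for AP-1, -0.23 to 0.065 for CTCF, -1.74 to 0.099 for TEAD, -2.25 to -0.25 for the E-box, -0.23 to 0.48 for RUNX, -0.0081 to 0.0048 for C/EBP and -0.053 to 0.065 for the glucocorticoid type element. Counts ranged from 327 to 4409 vehicle-only regions (highest without vehicle replicate 3), 200 to 1058 fulvestrant-only regions (highest without fulvestrant replicate 2), 160 to 1817 vehicle-only promoters (highest without fulvestrant replicate 1), 34 to 108 fulvestrant-only promoters (highest without fulvestrant replicate 2), 1368 to 2785 and 1316 to 2666 loci (both highest without fulvestrant replicate 1), and 0 to 2 regions called by limma (2 without fulvestrant replicate 1).

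The labels do not say that a number marks a shared animal or culture, although chromosome Y peak numbers set number 1 apart from 2 and 3. Same-numbered libraries deviated together with r = 0.25, -0.10 and -0.37 over the 1050 regions, so the numbers were not taken to pair the samples. With the replicate block, limma called 2 regions, near Chl1 and Tmem267, against 0 without it. Single-copy summits gave 1, at Chl1. For single values the exact test with signs flipped within numbers cannot go below 0.25.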

Other observations

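Loci outside the estrogen, TGF-beta and matrix lists also had peak numbers, per 10000 peaks of the list, that did not overlap between the groups. Fos, an AP-1 subunit, had 0.259, 0.0914 and 0.462 with vehicle and 0.680, 0.648 and 0.695 with fulvestrant, whereas Jun, its partner, had 0.518, 0.457 and 1.16 against 0.408, 0.324 and 0. Egln1, an oxygen sensor that marks HIF proteins for degradation, had 0.259, 0.640 and 0.694 against 1.36, 1.62 and 0.695. Hsph1 was higher with fulvestrant and Hspd1 with vehicle, though both are chaperone genes. Des, the desmin gene of muscle, had 0.130, 0.183 and 0.231 against 0.680, 0.648 and 0.695. Prm1, a sperm protamine gene listed as silent in fibroblasts, did the same, at 0.259, 0.274 and 0.231 against 0.816, 0.648 and 1.04. Over all genes, 3.88% were higher in every vehicle library and 3.97% in every fulvestrant library, and each value rests on few peaks. No test was made at these loci, which were picked from the lists after their values were seen.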
